A study of Homo sapiens with 96 samples.

Results

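Afatinib, an irreversible inhibitor of the kinases of the ERBB receptor family, was examined in HaCaT-EGFR cells through 5 of the 96 arrays of the series. HaCaT is a spontaneously immortalized line of human keratinocytes, the cells of the epidermis. HaCaT-EGFR carries wild-type EGFR, the receptor for epidermal growth factor, in a lentiviral vector under the CMV promoter and was selected with puromycin, with pool or single clone not given in the sources used here. The arrays were chosen by their labels as the 3 HaCaT-EGFR arrays with afatinib (10 nM) and no siRNA and the 2 HaCaT-EGFR arrays with the PBS control and no siRNA. The study compared cells with EGFR, mutant HRAS or mutant PIK3CA with a control line (HaCaT-Mock), all treated with EGFR-directed agents. Other HaCaT-EGFR arrays used for comparison had gefitinib (100 nM, 3 arrays), cetuximab (100 nM, 3 arrays), an EGFR siRNA (siEGFR, 3 arrays), scramble siRNA alone (3 arrays), scramble siRNA with afatinib (1 array) and scramble siRNA with PBS (2 arrays). HaCaT-Mock and HaCaT-HRAS each had 3 afatinib arrays and 3 PBS arrays.

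EGFR pairs with itself or with another ERBB receptor when a ligand binds, and the pair signals through the RAS to MAPK cascade and through PI3K to AKT. In the epidermis this signal keeps basal keratinocytes proliferating and holds back terminal differentiation, and its inhibition in patients is known for inflammatory skin reactions. Negative feedback genes such as the ERK phosphatase DUSP6 and the Sprouty proteins are transcribed when the cascade is on and are widely used as its readout.

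Afatinib arrays 1 and 2 and both PBS arrays were in array batch J, and afatinib array 3 was in batch M, which had no PBS array of this line. Each log2 change and its standard error (SE) came from a limma model of 89 HaCaT construct arrays with a batch term, and a gene passed the test at a Benjamini-Hochberg adjusted p under 0.05 over all 19775 genes. The labels do not state whether replicates were separate cultures, so p-values measure the spread between arrays, which may be technical, and precision is limited by how few arrays there were. Across genes, the batch J pair of each treatment correlated at r = 0.997, and afatinib array 3 correlated with the other afatinib arrays at 0.99 and 0.992. The difference between the 3' and the 5' ACTB probe sets, a sign of how RNA was labelled or preserved, was 1.34 and 1.5 on afatinib arrays 1 and 2, 0.36 on afatinib array 3, and 1.35 and 1.46 on the PBS arrays. Batch M arrays lay between 0.24 and 0.53 on this measure and batch J arrays between 1.0 and 3.5, and its part in the results was not tested. For afatinib against PBS in HaCaT-EGFR, the batch J values are given beside the genes and lists whose call or count they change. The 7 measured keratinocyte markers averaged 11.87 to 12.06 on the afatinib arrays, against 11.14 to 11.2 on the PBS arrays, and KRT14 and SFN were the brightest.

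Afatinib changed the transcriptome of HaCaT-EGFR broadly. The keratin KRT4, the envelope precursor IVL, the death ligand TRAIL and the chemokine CCL2 were among the largest rises, and MAPK-induced factors among the largest falls. KRT4, a keratin of stratified mucosa, read 9.61, 9.38 and 9.90 with afatinib, against 5.74 and 6.04 under PBS. It rose by 3.65 on the log2 scale (SE 0.341, adjusted p = 1.8e-12), a 12.5-fold difference. TNFSF10, which encodes TRAIL, read 10.71, 10.38 and 10.33 with afatinib, against 7.60 and 7.59 under PBS, and rose by 2.99 (SE 0.242, adjusted p = 2.1e-14). Both genes had every afatinib array far above every PBS array. The monocyte chemokine CCL2 read 8.77, 8.67 and 8.18, against 5.83 and 5.50 under PBS, and rose by 2.95 (SE 0.495, adjusted p = 3.2e-06). ETV5, an ETS transcription factor induced by MAPK signalling, read 5.09, 5.37 and 4.88 with afatinib, against 8.19 and 8.04 under PBS, and changed by -2.98 (SE 0.257, adjusted p = 1.6e-13). Its afatinib and PBS arrays did not overlap.

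Of 19775 genes, 2576 were higher with afatinib (13.0% of those tested) and 2705 were lower (13.7%). At least 2-fold changes numbered 328 higher (1.66%) and 119 lower (0.602%). All 3 afatinib arrays lay above both PBS arrays for 4156 genes (21.0%) and below both for 5135 genes (26.0%), with no test behind these numbers. With batch J arrays alone 2110 genes were higher (10.7%) and 2042 lower (10.3%), of which 4086 passed in the same direction with all arrays. None of the 5281 genes had the opposite sign with batch J arrays alone. The median gene changed by -0.02.

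**Figure D1:**
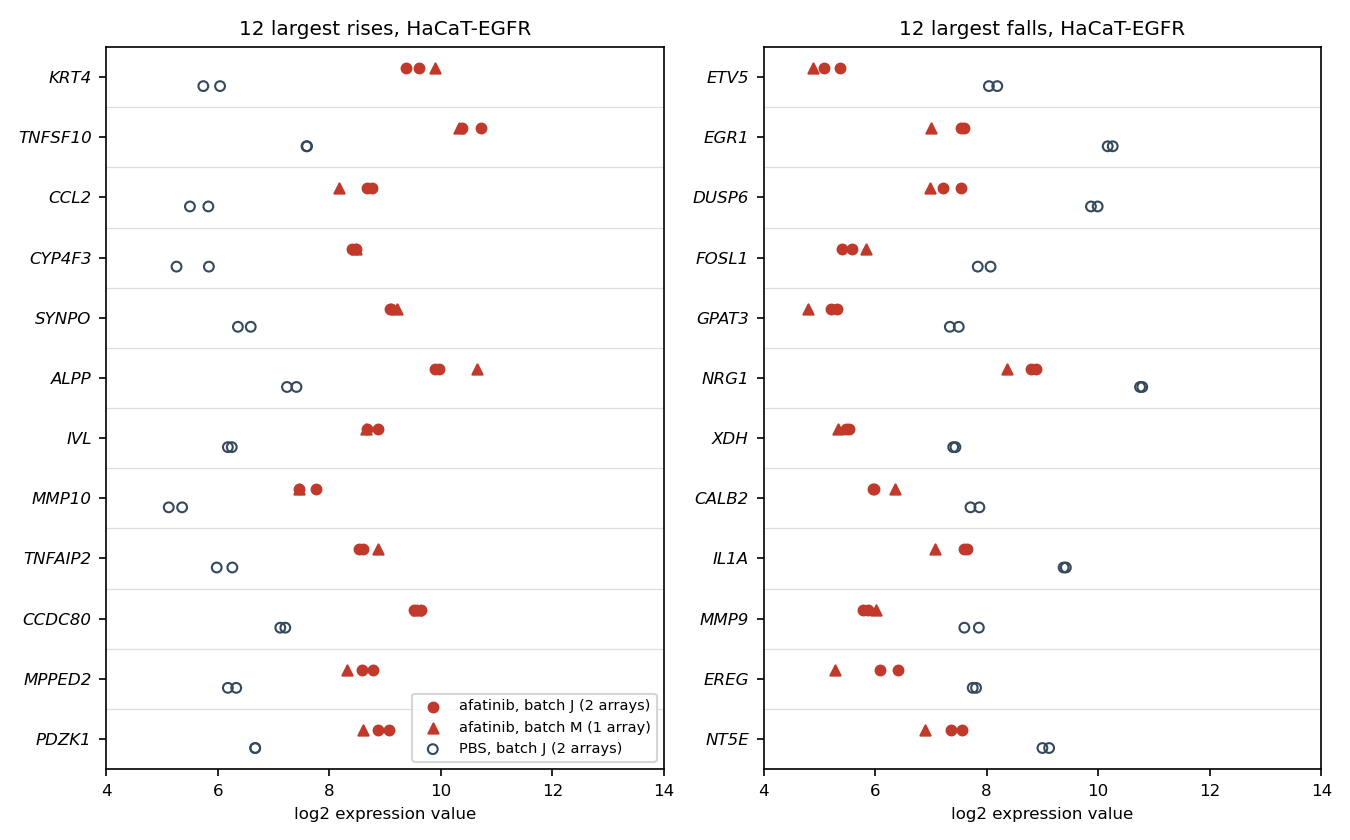
Log2 expression value (horizontal axis) of each afatinib array (filled, circles for batch J and a triangle for batch M) and each PBS array (open circles) of HaCaT-EGFR for the 12 largest rises and the 12 largest falls among genes whose mean reached that of the median gene. For every gene drawn the afatinib arrays lie apart from the PBS arrays, as for KRT4 (9.38 to 9.90 with afatinib, against 5.74 and 6.04 under PBS).

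Other genes among the 12 largest rises at or above the median level, which leaves out MMP13 and RPTN described below, were CYP4F3, an enzyme that inactivates leukotrienes (2.90, SE 0.32), the actin-associated protein SYNPO (2.64, SE 0.222), the alkaline phosphatase ALPP (2.64, SE 0.238), and IVL, the envelope precursor involucrin (2.6, SE 0.199). MMP10, a secreted stromelysin, rose by 2.46 (SE 0.305), TNFAIP2 by 2.45 (SE 0.283), the matrix protein CCDC80 by 2.40 (SE 0.298), the metallophosphoesterase MPPED2 by 2.36 (SE 0.19) and the scaffold protein PDZK1 by 2.29 (SE 0.31). ALPP stood at 9.90, 9.96 and 10.65 with afatinib, against 7.41 and 7.24 under PBS. CYP4F3 stood at 8.48, 8.4 and 8.48, against 5.26 and 5.84 under PBS. Among the 12 largest falls, GPAT3, a glycerol-phosphate acyltransferase, changed by -2.15 (SE 0.201), the purine-degrading enzyme XDH by -1.91 (SE 0.148), the calcium-binding protein CALB2 by -1.90 (SE 0.215) and the gelatinase MMP9 by -1.85 (SE 0.207). Of 144 named genes that passed, 95 had more than 1 probe set, and for 61 of them another probe set also passed in the same direction. ERBB3 was the 1 gene of the 144 with a probe set that passed in the opposite direction (-0.36).

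The readout of the MAPK cascade fell as a group. Of 27 measured MAPK output and feedback genes 19 were lower and 1 was higher, with a median change of -0.77 against -0.02 over all genes. EGR1, an immediate-early zinc finger factor, read 7.59, 7.54 and 7.0 with afatinib, against 10.26 and 10.17 under PBS, and changed by -2.71 (SE 0.18, adjusted p = 3.3e-17). The ERK phosphatase DUSP6 read 7.54, 7.22 and 6.99, against 9.99 and 9.87 under PBS (-2.58, SE 0.238, adjusted p = 1.2e-12). FOSL1, an AP-1 subunit, read 5.41, 5.58 and 5.83, against 8.07 and 7.84 under PBS (-2.48, SE 0.268, adjusted p = 1.3e-10). No afatinib array of these genes came near a PBS array. The further falls covered the phosphatases DUSP4 (-1.41) and DUSP5 (-0.77), the Sprouty inhibitors SPRY1 (-1.15), SPRY2 (-0.73) and SPRY4 (-0.63), the EGFR inhibitor ERRFI1 (-1.07) and FOS (-1.03). JUNB, another AP-1 subunit, was the single riser (0.35, adjusted p = 0.0033), and MYC (0.05) and CCND1 (0.01) did not pass. The counts with batch J arrays alone were 18 lower and 1 higher.

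The promoter of EGR1 is shown because the gene had the largest change among MAPK output genes whose promoter held a CArG box, the site of serum response factor. The 300 bases, from RefSeq on GRCh38.p14 (chr5:138465229-138465528, plus strand), hold 2 CArG boxes, in capitals, the first of which begins 105 bases before the annotated start. Both strands were searched by script, a match describes letters and not a bound site, and 1.29% of the 27305 promoters in the table hold this motif. Of the 16 MAPK output genes matched to a promoter only EGR1 held one (6.25%), against 1.22% of promoters of genes tested.
EGR1: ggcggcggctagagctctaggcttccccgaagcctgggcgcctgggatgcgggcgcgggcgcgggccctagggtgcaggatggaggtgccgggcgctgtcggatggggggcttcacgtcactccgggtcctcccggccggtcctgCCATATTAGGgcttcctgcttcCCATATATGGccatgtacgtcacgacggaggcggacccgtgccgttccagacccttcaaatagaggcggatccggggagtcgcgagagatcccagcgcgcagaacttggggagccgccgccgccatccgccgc

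Of the ERBB family, 3 receptors rose and 4 ligands fell. EGFR, the target of afatinib, lay at the level of HaCaT-Mock under PBS on the probe set used. Within batch J it read 10.95 and 11.02 in HaCaT-EGFR and 10.96 and 11.01 in HaCaT-Mock, whose batch E array read 10.42. On the other 4 probe sets that passed below, the means lay 0.25 to 0.74 above HaCaT-Mock, with that batch E array included. The set with the largest gap read 10.44 and 10.50 in HaCaT-EGFR, against 9.93 and 10.22 in batch J and 9.04 in batch E in HaCaT-Mock. On the probe set used EGFR read 11.83, 12.01 and 11.39 with afatinib, against 10.95 and 11.02 under PBS, and rose by 0.97 (SE 0.108, adjusted p = 2.5e-10). Of its 9 probe sets 5 passed, with changes of 0.60 to 0.97, and the other 4, with changes of -0.19 to 0.15, did not. Native and introduced transcripts cannot be told apart here, since the position of the probe sets relative to the introduced sequence was not analysed. ERBB3, a kinase-impaired partner, read 8.99, 8.89 and 8.79, against 8.16 and 8.17 under PBS (0.76, SE 0.086, adjusted p = 4.2e-10), and ERBB2, the receptor without a ligand of its own, rose by 0.47 (SE 0.105, adjusted p = 0.00034). ERBB4 changed by -0.10 (adjusted p = 0.75). Of 8 measured ligands 4 were lower and 1 was higher (4 and 0 with batch J arrays alone). NRG1, a ligand of ERBB3 and ERBB4, read 8.89, 8.79 and 8.36, against 10.75 and 10.79 under PBS (-1.95, SE 0.14, adjusted p = 5e-16). HBEGF (-1.57, SE 0.119), EREG (-1.63, SE 0.268) and TGFA (-0.44, adjusted p = 0.012), which bind EGFR, were also lower. BTC, another EGFR ligand, was higher by 0.47 (adjusted p = 0.035) at a level near 4, and its adjusted p was 0.15 with batch J arrays alone.

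AP-2alpha is a transcription factor of ectoderm, and the study named targets of it on these same samples, so their directions here are not independent evidence. All 6 measured targets named as rising were higher, with a median of 0.66, and all 4 named as falling were lower (3 with batch J arrays alone), with a median of -0.59. TFAP2A, which encodes AP-2alpha, read 10.30, 10.28 and 10.08 with afatinib, against 9.74 and 9.80 under PBS (0.50, SE 0.0642, adjusted p = 1.3e-08). The growth factor receptor IGF1R rose by 0.75 (SE 0.0892), and the morphogens BMP2 and BMP4 rose by 0.87 (SE 0.141) and 0.56 (SE 0.108). VEGFA, the angiogenic factor, read 9.64, 9.52 and 9.28, against 10.40 and 10.41 under PBS (-0.86, SE 0.139, adjusted p = 1.7e-06). The receptor FGFR4 changed by -0.71 (SE 0.139), and TGFBR3, a TGF-beta co-receptor, by -0.47 (SE 0.172, adjusted p = 0.033, and 0.052 with batch J arrays alone). Of the paralogs, TFAP2B, at a level near 4, changed by -0.28 (adjusted p = 0.047, and 0.25 with batch J arrays alone), while TFAP2C, TFAP2D and TFAP2E lay between -0.05 and -0.01 and did not pass. Among 16 receptor tyrosine kinases that can bypass EGFR, 5 rose, 1 (FGFR4) fell and 10 did not pass, with a median of -0.08. The shares of all genes were 13.0% higher and 13.7% lower, so the list did not rise as a group. The 5 were IGF1R, the FGF receptors FGFR2 (0.74) and FGFR3 (0.68), the insulin receptor INSR (0.56) and the hepatocyte growth factor receptor MET (0.42).

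Among keratinocyte differentiation genes, basal and some suprabasal genes were higher. Of 11 measured basal and anchoring genes 6 were higher and none lower (median 0.33), with 5 higher for batch J arrays alone. KRT15, a basal keratin, read 12.79, 12.75 and 12.86 with afatinib, against 10.37 and 10.57 under PBS (2.28, SE 0.198, adjusted p = 2.1e-13). KRT5 read 12.52, 12.53 and 13.18, against 10.95 and 11.05 under PBS (1.42, SE 0.178), and its partner KRT14 rose by 0.81 (SE 0.17). Of the integrins, ITGA2 (0.65) and ITGB4 (0.33, adjusted p = 0.01, and 0.13 with batch J arrays alone) were higher, and ITGA3, ITGB1 and ITGA6 did not pass. Of 19 suprabasal and mucosal genes 6 were higher and 2 lower, with a median of 0.08, and the share lower did not exceed the 13.7% of all genes. KRT13, the mucosal partner of KRT4, read 10.34, 10.11 and 10.64, against 8.0 and 8.35 under PBS (2.10, SE 0.351, adjusted p = 3e-06). KRT1, an epidermal suprabasal keratin, read 6.9, 6.72 and 6.93, against 5.21 and 5.14 under PBS (1.66, SE 0.284, adjusted p = 4.6e-06). Its partner KRT10 did not pass (adjusted p = 0.49), and KRT2, a late keratin, was lower (-0.56).

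Of 18 cornified envelope genes 5 rose and 2 fell (5 and 1 with batch J arrays alone), against 13.0% and 13.7% of all genes, so the share that fell did not exceed that of all genes. Their median change was 0.01. RPTN, the envelope protein repetin, read 7.0, 6.8 and 6.88 with afatinib, against 3.61 and 3.46 under PBS (3.35, SE 0.223, adjusted p = 3.4e-17). Its PBS level was close to that of the leukocyte gene PTPRC (3.62) and was not shown to be above background, so the size of the change is uncertain. IVL read 8.88, 8.68 and 8.66, against 6.18 and 6.25 under PBS (adjusted p = 3.7e-15), and the cross-linking enzyme TGM1 read 7.63, 7.64 and 7.91, against 5.61 and 5.76 under PBS (1.98, SE 0.25, adjusted p = 7.2e-09). Each had all afatinib arrays above both PBS arrays. The plakin PPL (0.77) and CNFN (0.60) also rose, while SPRR3 (-0.38) and LCE3D (-0.34, adjusted p = 0.038, and 0.086 with batch J arrays alone) were lower, and filaggrin (FLG, -0.26) and loricrin (LORICRIN, 0.03) did not pass.

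The RPTN promoter is shown as that of the envelope gene with the largest fitted change whose promoter held an AP-1 motif (TGANTCA, in capitals, both strands searched). It lies at chr1:152159179-152159478 on the minus strand of GRCh38.p14 (RefSeq), and the match begins 95 bases before the start. The motif occurs in 8 of 14 matched envelope promoters (57.1%), against 7.76% of all promoters in the table and 5.84% of those of genes tested. Of the envelope genes with the motif 3 passed for afatinib against PBS. Over all genes it was in 6.34% of promoters of genes called higher and 4.33% of those called lower.
RPTN: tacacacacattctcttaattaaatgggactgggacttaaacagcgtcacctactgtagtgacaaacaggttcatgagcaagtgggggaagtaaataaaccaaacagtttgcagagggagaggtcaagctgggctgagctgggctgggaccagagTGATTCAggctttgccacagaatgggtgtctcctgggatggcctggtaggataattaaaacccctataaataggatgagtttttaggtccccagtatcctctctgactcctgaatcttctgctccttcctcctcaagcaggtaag

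Genes of wounded or hyperproliferative epidermis moved both ways, with 5 of 15 higher and 7 lower (median -0.33), and 4 and 6 with batch J arrays alone. The collagenase MMP13 read 8.71, 8.34 and 8.4 with afatinib, against 4.64 and 4.93 under PBS (3.76, SE 0.236, adjusted p = 4.2e-18). MMP10 read 7.76, 7.45 and 7.46, against 5.12 and 5.36 under PBS (adjusted p = 4.7e-09). MMP9, by contrast, read 5.79, 5.87 and 6.02, against 7.86 and 7.60 under PBS (adjusted p = 3.1e-10). Of these matrix-degrading proteases, MMP1 (-0.35) and MMP3 (-0.22) did not pass. KRT16, a keratin of activated epidermis, rose by 0.96 (SE 0.166), and the hyaluronan synthase HAS3 (-1.24), the protease inhibitor SERPINE2 (-1.42) and NT5E, the ectonucleotidase CD73 (-1.58), were lower.

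Interferon-stimulated and antigen presentation genes rose, and the chemokines of the interferon-gamma response fell. Of 24 interferon response genes 13 were higher and none lower, with a median of 0.48. IFIT3, an antiviral effector, read 11.59, 11.48 and 11.53 with afatinib, against 9.56 on both PBS arrays (1.97, SE 0.256, adjusted p = 1.4e-08). The restriction factor TRIM22 rose by 2.15 (SE 0.314) and IFIT2 by 2.10 (SE 0.281). IRF1, an interferon-induced transcription factor, read 9.36, 9.41 and 9.80, against 7.72 and 7.81 under PBS (1.66, SE 0.179, adjusted p = 1.2e-10). ISG15 (0.21), OAS3 (-0.19) and IFI44 (-0.31), classic members of the same response, did not pass. Batch J arrays alone gave 11 higher and none lower. Antigen presentation genes were higher in 11 of 17 cases and lower in none (median 0.56). The immunoproteasome subunit PSMB10 read 10.20, 10.21 and 10.22, against 8.95 and 8.83 under PBS (1.32, SE 0.155, adjusted p = 1.1e-09), and PSMB9 rose by 1.21 (SE 0.167), the peptide-loading factor TAPBP by 0.87 (SE 0.149) and the class I transactivator NLRC5 by 0.69 (SE 0.157). The class II genes CIITA (0.09) and HLA-DRA (-0.18) did not pass.

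Of 22 chemokines and interleukins 5 were lower and 1, CCL2, was higher, against 13.7% and 13.0% of all genes. CXCL10 read 4.66, 4.38 and 4.16 with afatinib, against 6.37 and 6.2 under PBS (-1.86, SE 0.217, adjusted p = 9.6e-10). CXCL9 read 4.41, 4.63 and 4.83, against 6.58 and 6.32 under PBS (-1.85, SE 0.171, adjusted p = 1.4e-12). These chemokines, which attract T cells through CXCR3, thus moved opposite to the intracellular interferon response genes on the same arrays. CXCL11, another CXCR3 ligand, read 3.17, 3.3 and 3.32, against 4.78 and 4.4 under PBS (-1.31, SE 0.182). Its afatinib values lay below the mean of the leukocyte gene PTPRC on the afatinib arrays (3.75). They were not shown to be above background, so the size of the CXCL11 change is uncertain. The interleukins IL1A (7.65, 7.59 and 7.07 with afatinib, against 9.42 and 9.38 under PBS) and IL1B (-1.33, SE 0.13) were lower too. CXCL8, the neutrophil chemokine (0.47), and IL6 (0.10) did not pass.

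The IFIT3 and PSMB10 promoters are shown as those of the most changed interferon response and antigen presentation genes that held a pair of interferon-response half-sites (a pair of GAAA half-sites with 2 bases of any kind between them, in capitals, searched on both strands). They lie on GRCh38.p14 (RefSeq) at chr10:89327747-89328046, plus strand, with 2 matches, and at chr16:67936801-67937100, minus strand, with 1 match that begins 21 bases before the start. The motif occurs in 12 of 18 matched interferon response promoters (66.7%) and 6 of 13 matched antigen presentation promoters (46.2%), against 3.65% of all promoters in the table. It is in 2.94% of promoters of genes tested and 4.34% of those of genes called higher.
IFIT3: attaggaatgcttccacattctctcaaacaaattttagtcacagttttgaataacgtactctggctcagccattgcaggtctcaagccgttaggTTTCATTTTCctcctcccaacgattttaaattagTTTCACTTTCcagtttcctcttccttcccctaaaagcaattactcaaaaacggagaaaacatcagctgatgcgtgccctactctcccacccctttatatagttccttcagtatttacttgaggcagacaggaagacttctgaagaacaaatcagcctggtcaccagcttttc
PSMB10: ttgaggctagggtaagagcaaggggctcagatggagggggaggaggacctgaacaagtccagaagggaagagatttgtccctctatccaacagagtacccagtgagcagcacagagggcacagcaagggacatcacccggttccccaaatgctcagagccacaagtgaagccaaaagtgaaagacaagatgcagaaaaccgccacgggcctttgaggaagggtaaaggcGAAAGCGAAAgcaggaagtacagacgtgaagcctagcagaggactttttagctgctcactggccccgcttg

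Targets of FOXO factors, which are held out of the nucleus by AKT, rose in 15 of 22 cases and fell in 1 (median 0.63). The muscle-atrophy ubiquitin ligase FBXO32 read 8.77, 8.83 and 8.68 with afatinib, against 6.51 and 6.55 under PBS (2.25, SE 0.185, adjusted p = 3.8e-14). TXNIP, an inhibitor of thioredoxin and glucose uptake, read 11.19, 11.27 and 11.39, against 9.25 and 9.53 under PBS (1.87, SE 0.212, adjusted p = 4.4e-10). YPEL3 (2.01, SE 0.165) and PIK3IP1, an inhibitor of PI3K (1.65, SE 0.182), rose as well, and the pseudokinase TRIB2 was lower (-1.26, SE 0.198). Of 18 genes of the BCL2 family and the TRAIL system 6 rose and 3 fell (5 and 3 with batch J arrays alone). The shares of all genes were 13.0% and 13.7%, and the share of the list that fell lay near that of all genes. Beside TRAIL itself the BH3-only killers HRK (1.22, SE 0.151) and BCL2L11, which encodes BIM (0.70, SE 0.0877), were higher. The TRAIL receptors TNFRSF10A (-0.92, SE 0.164) and TNFRSF10B (-0.58, SE 0.106) were lower, as was BAX (-0.57, SE 0.153). The ligand and its death receptors thus moved in opposite directions. BAD, another BH3-only gene, rose by 0.47 (SE 0.102), but with the probe set chosen by the rule of the study it changed by -0.04.

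Of 21 TGF-beta and BMP genes 9 were higher and 4 lower, against 13.0% and 13.7% of all genes, and 9 and 2 with batch J arrays alone. The BMP-induced inhibitors of differentiation ID1 (12.08, 11.97 and 12.34 with afatinib, against 10.30 and 10.53 under PBS), ID2 and ID3 rose by 1.64 (SE 0.16), 1.27 (SE 0.145) and 1.54 (SE 0.132). TGFB2, a TGF-beta ligand, was higher (1.14), and TGFB1 (-0.54, adjusted p = 0.027, and 0.12 with batch J arrays alone), the receptor TGFBR1 (-0.50) and the activin subunit INHBA (-0.85) were lower.

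Proliferation genes fell, with 29 of 36 measured S, G2 and M phase genes lower and none higher (median -0.44). AURKA, a mitotic kinase, read 9.98, 9.94 and 9.48 with afatinib, against 10.92 and 10.96 under PBS (-1.02, SE 0.135, adjusted p = 1.9e-08). CDC6, a replication licensing factor, changed by -0.95 (SE 0.0923), RRM2, a subunit of ribonucleotide reductase, by -0.89 (SE 0.0991), and the proliferation marker MKI67 by -0.69. Batch J arrays alone also gave 29 lower. Of 15 G1 regulators 5 rose and 3 fell, against 13.0% and 13.7% of all genes. The CDK4 inhibitor CDKN2B read 9.38, 9.15 and 8.74, against 7.70 and 7.85 under PBS (1.46, SE 0.281, adjusted p = 3.7e-05), the MYC antagonist MXD1 rose by 0.76 (SE 0.16), and the kinase genes CDK4 (-0.42) and CDK2 (-0.39) and the cyclin CCND3 (-0.49) were lower. Fewer cells in cycle and less of these transcripts per cell cannot be told apart in RNA from whole cultures.

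Ribosome biogenesis genes were lower in 17 of 19 cases and higher in none (median -0.66), and 16 were lower with batch J arrays alone. LYAR, a nucleolar factor, read 8.10, 8.12 and 7.66 with afatinib, against 9.46 and 9.45 under PBS (-1.37, SE 0.115, adjusted p = 6.3e-14). UTP20, a component of the small-subunit processome, read 7.61, 7.89 and 7.55, against 8.62 and 8.63 under PBS (-0.87, SE 0.116, adjusted p = 2.1e-08), and NOP16 changed by -0.96 (SE 0.103). MYC, whose protein drives this programme through E-boxes, did not pass (0.05). The UTP20 promoter is shown as that of the most changed member that held an E-box (CACGTG, in capitals), the letters being the same on both strands. It lies at chr12:101279855-101280154 on the plus strand of GRCh38.p14 (RefSeq) with the match 10 bases before the start. The motif occurs in 7 of 15 matched promoters of the list (46.7%), against 7.43% of all promoters in the table. It is in 8.9% of promoters of genes tested and 11.2% of those of genes called lower.
UTP20: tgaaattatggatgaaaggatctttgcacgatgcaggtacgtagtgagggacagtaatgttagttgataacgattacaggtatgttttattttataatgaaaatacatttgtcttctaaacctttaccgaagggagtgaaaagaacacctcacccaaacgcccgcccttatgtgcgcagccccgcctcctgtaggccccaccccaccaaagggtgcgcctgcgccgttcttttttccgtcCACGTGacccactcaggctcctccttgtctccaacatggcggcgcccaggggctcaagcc

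Glycolysis and hypoxia genes were lower in 13 of 21 cases and higher in 3 (median -0.53), and batch J arrays alone gave 12 and 3. Hexokinase HK2 read 7.92, 7.98 and 7.60 with afatinib, against 9.08 and 8.95 under PBS (-1.09, SE 0.134, adjusted p = 3.8e-09), and the mitophagy receptor BNIP3 changed by -1.58 (SE 0.147) and PDK1, a brake on pyruvate oxidation, by -1.01 (SE 0.117). The 3 that rose were ADM, the vasodilator adrenomedullin (1.52, SE 0.0809), PFKFB3, a regulator of glycolytic flux (0.97, SE 0.0844), and NDRG1 (0.81, SE 0.11), so the list did not move as a block. Sterol synthesis genes were lower in 6 of 13 cases and higher in 1 (median -0.33). HMGCS1, an early enzyme of the pathway, read 8.58, 8.30 and 7.77, against 9.06 and 9.07 under PBS (-0.71, SE 0.128, adjusted p = 1.1e-05). FDPS (-0.43), SQLE (-0.46), IDI1 (-0.42), MSMO1 (-0.38) and DHCR7 (-0.38) were lower and LSS was higher (0.33). Batch J arrays alone gave 4 lower and 1 higher, SQLE (adjusted p = 0.13) and IDI1 (adjusted p = 0.059) no longer passing. Of 8 fatty acid synthesis genes 3 rose, led by their regulator SREBF1 (1.03, SE 0.122), and ELOVL6 fell (-0.25, adjusted p = 0.013, and 0.097 with batch J arrays alone). The fatty acid list had 2 higher and none lower with batch J arrays alone. The lipid-binding protein FABP5 read 7.40, 7.40 and 6.91, against 8.85 and 8.79 under PBS (-1.49, SE 0.11, adjusted p = 1e-15).

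Markers of other cell types lay well below those of keratinocytes. The fibroblast, melanocyte, endothelial and immune lists averaged between 4.90 and 5.66 on every one of the 5 arrays, close to the array medians (5.09 to 5.14). Most of these markers were below the median gene, the exceptions including COL1A1 (7.1 with afatinib and 7.32 under PBS) and MITF (7.02 and 7.46). CDH5, an endothelial cadherin, was nevertheless higher at 5.12, 4.85 and 5.41 with afatinib, against 3.78 and 3.65 under PBS (1.42, SE 0.181, adjusted p = 8.5e-09), as was VWF (0.59), and PECAM1 (-0.11) and TEK (0.21) did not pass. The fibroblast collagen COL3A1 (0.49, adjusted p = 0.046) was higher and the melanocyte factor MITF (-0.34, adjusted p = 0.01) was lower. None of 4 immune markers passed. Of 10 housekeeping genes 3 were lower, HPRT1 (-0.73), TFRC (-0.63) and PPIA (-0.30), and ACTB (-0.06) and GAPDH (-0.18) did not pass. Of 16 ATF4 targets, which report amino acid and endoplasmic reticulum stress, 2 were higher and 2 lower, and 1 and 2 with batch J arrays alone. With all arrays neither share exceeded that of all genes (13.0% higher and 13.7% lower).

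**Figure D2:**
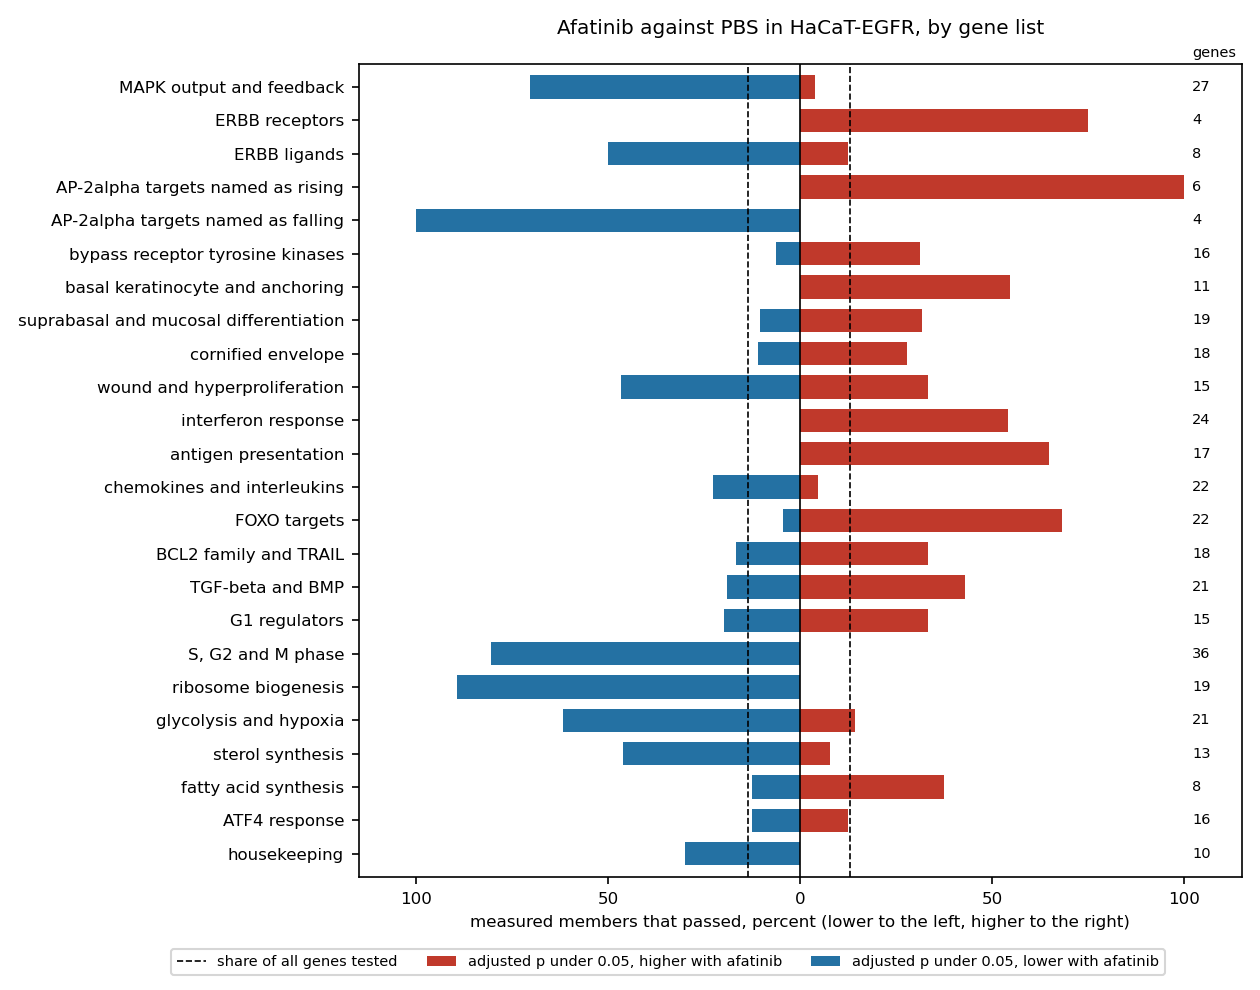
Share of the measured members of each gene list (percent, horizontal axis; number of measured genes at the right) that passed as lower (bars to the left) or higher (bars to the right) with afatinib against PBS in HaCaT-EGFR, with dashed lines at the shares of all genes (13.7% lower, 13.0% higher). The MAPK output (19 of 27), S, G2 and M phase (29 of 36) and ribosome biogenesis (17 of 19) lists extend to the left, and the FOXO target (15 of 22), interferon response (13 of 24) and antigen presentation (11 of 17) lists to the right.

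Afatinib was also given to HaCaT-EGFR cells that had received scramble siRNA, on arrays that were not among the 5 compared above but share the fitted model and thus its spread and batch estimates. This comparison (1 array in batch E against 2, in batches J and E) called 1344 genes higher (6.80%) and 1470 lower (7.43%), with the lone afatinib array assumed to vary like the other groups, so its calls rest on their spread. Over all 19775 genes the changes correlated with those without siRNA at r = 0.753, as a description across genes, which are not independent replicates. Of the 328 genes at least 2-fold higher without siRNA, 323 had a positive change with scramble siRNA and 272 (82.9%) were called higher. Of the 119 at least 2-fold lower, all 119 had a negative change and 105 (88.2%) were called lower. KRT4 read 9.31 with afatinib on scramble siRNA, against 6.81 and 7.01 with PBS on scramble siRNA (2.35, adjusted p = 0.00023), and DUSP6 read 6.81, against 9.86 and 9.61 with PBS (-2.54, adjusted p = 1.4e-07). The MAPK output list had 17 lower and none higher, ribosome biogenesis 16 lower, interferon response 9 higher, antigen presentation 8 higher and FOXO targets 12 higher and 2 lower.

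Other lists had lower counts on the scramble siRNA arrays. The S, G2 and M phase list had 6 lower and 1 higher of 36 there (median -0.14). No sterol synthesis gene passed as lower and 1 was higher. Of the at least 2-fold genes, 5 had a fitted change of the opposite sign with scramble siRNA, MMP10, KRT1, AQP3, CLDN8 and LYNX1, of which AQP3, CLDN8 and LYNX1 were chosen after their values were seen. Within batch E, 1 array against 1, the differences were 0.26 for MMP10, -0.21 for KRT1, 0.31 for AQP3, -0.07 for CLDN8 and -0.30 for LYNX1, so MMP10 and AQP3 were not lower on the batch E array itself and their negative sign holds only for the fitted change with its batch term. MMP10 read 8.04 with afatinib on scramble siRNA, against 7.71 and 7.78 with PBS on scramble siRNA (-0.15 after the batch term, adjusted p = 0.88). KRT1 read 7.36, against 7.59 and 7.57 (-0.67, adjusted p = 0.29), and AQP3, a water and glycerol channel of keratinocytes, read 9.32, against 9.21 and 9.01 (-0.03, adjusted p = 0.97). KRT13, at 10.46 against 10.27 and 10.18, showed the same pattern (0.08, adjusted p = 0.95). For these 4 genes every PBS array with scramble siRNA lay at or above the lowest afatinib array without siRNA. The difference between the responses with and without siRNA was not tested.

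**Figure D3:**
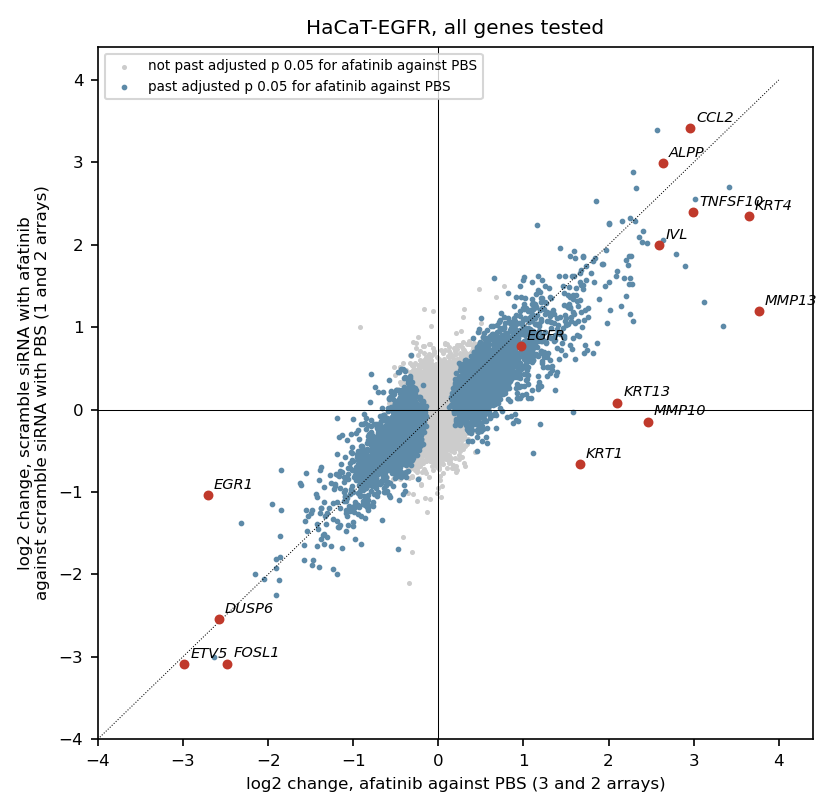
Log2 change of afatinib against PBS (horizontal axis, 3 and 2 arrays) and of scramble siRNA with afatinib against scramble siRNA with PBS (vertical axis, 1 and 2 arrays) in HaCaT-EGFR, 1 point per gene, blue where the gene passed without siRNA and red for the genes named beside the points. Most named genes lie near the dotted line of equal change, whereas MMP10, KRT1 and KRT13 have fitted changes near 0 or below on the vertical axis (-0.15, -0.67 and 0.08).

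Knockdown of the receptor by siEGFR was set beside the kinase inhibitor. EGFR itself changed by -1.71 (adjusted p = 1.2e-19) and 940 genes were higher (4.75%) and 931 lower (4.71%) than with scramble siRNA. Of the genes at least 2-fold higher with afatinib, 306 of 328 had a positive change and 137 (41.8%) were called higher. Of those at least 2-fold lower, 96 of 119 had a negative change, 59 (49.6%) were called lower and 2 higher. Over these sets the median change was 0.40 and -0.38 with siEGFR, against 1.28 and -1.22 with afatinib, on which the sets were chosen. The MAPK output list had 15 lower and 1 higher of 27, with DUSP6 at -1.70 (adjusted p = 3.1e-08) and ETV5 at -1.19 (adjusted p = 0.00016). EGR1 (-0.36, adjusted p = 0.17), KRT4 (0.71, adjusted p = 0.15) and IVL (0.39, adjusted p = 0.19) did not pass. Only 1 of 36 S, G2 and M phase genes was lower and 4 were higher, and 4 of 19 ribosome biogenesis genes were lower. EIF5A2, a translation factor, was higher with siEGFR (1.35, adjusted p = 5.8e-06) and lower with afatinib (-1.19, adjusted p = 7.3e-05). C6orf120 (-1.42), MCFD2 (-1.31) and GOLGA4 (-1.21) were among the largest falls with siEGFR, against changes of -0.28, -0.38 and -0.43 with afatinib. For siEGFR, 725 genes passed with batch J arrays alone.

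Afatinib was next set beside the other agents in the same line. Gefitinib and afatinib are both anilinoquinazoline kinase inhibitors, and afatinib carries a reactive acrylamide group that gefitinib lacks, while cetuximab is an antibody against the receptor. The doses differed (10 nM for afatinib and 100 nM for gefitinib and cetuximab), so agent and dose cannot be told apart. Against the same PBS arrays gefitinib had 2596 genes higher (13.1%) and 2292 lower (11.6%), and cetuximab 1562 higher (7.90%) and 1172 lower (5.93%). Over the 328 genes at least 2-fold higher with afatinib, the median change was 1.28 with afatinib, 1.23 with gefitinib and 0.93 with cetuximab. Over the 119 lower genes it was -1.22 with afatinib, -1.22 with gefitinib and -1.0 with cetuximab. These comparisons share the PBS arrays, and the set was chosen on afatinib.

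Set directly against gefitinib, afatinib differed in 1 gene of 19775 (0.00506%), and 656 genes had an unadjusted p under 0.05. This gene was EGR1, which read 7.59, 7.54 and 7.0 with afatinib, against 6.58, 6.66 and 6.17 with gefitinib. Afatinib left it 0.91 higher (SE 0.16, 95% interval 0.59 to 1.23, adjusted p = 0.012), all afatinib arrays lying above all gefitinib arrays. EGR1 was again the gene that passed with batch J arrays alone (adjusted p = 0.00037). No gene passed without afatinib array 1, without afatinib array 2 or without any 1 gefitinib array, and 73 passed with array weights. DUSP6 was in the same direction, at 7.54, 7.22 and 6.99 with afatinib and 6.58, 6.4 and 6.18 with gefitinib, with an interval of 0.44 to 1.29, and did not pass over all genes. For 19761 of the 19775 genes the 95% interval of the difference lay within 1 log2 unit on either side of 0, and 95% of genes differed by at most 0.21. For KRT4 the interval was -0.63 to 0.59, for IVL -0.34 to 0.37 and for ETV5 -0.28 to 0.64.

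Against cetuximab, afatinib had 812 genes higher (4.11%) and 1248 lower (6.31%), of which 20 and 4 differed at least 2-fold. Of 27 MAPK output genes 5 were higher with afatinib than with cetuximab and 1 was lower (median 0.14). EGR1 was 1.39 higher than with cetuximab (adjusted p = 6e-09; cetuximab arrays at 6.23, 6.23 and 5.49) and DUSP6 0.93 higher (adjusted p = 0.0016; cetuximab arrays at 6.48, 6.46 and 6.01). RGCC, a regulator of the cell cycle, read 7.19, 6.82 and 6.79 with afatinib, against 5.26, 5.51 and 4.58 with cetuximab (adjusted p = 3.9e-07). It did not pass for afatinib against PBS (7.51 and 7.56 under PBS). TNFSF10 was 1.41 higher with afatinib (adjusted p = 3.9e-06; cetuximab arrays at 8.99, 9.31 and 8.91) and MMP10 1.96 higher (adjusted p = 5.1e-07; cetuximab arrays at 5.69, 5.96 and 5.12). MMP13 (1.99), FBXO32 (1.49) and EGFR (0.77) were also higher with afatinib.

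Growth and sterol lists held some of the genes that were lower with afatinib than with cetuximab. Of 36 S, G2 and M phase genes 21 were lower and none higher, and of 13 sterol synthesis genes 9 were lower and none higher. HMGCS1 read 8.58, 8.30 and 7.77 with afatinib, against 9.38, 9.19 and 9.17 with cetuximab (-1.03, adjusted p = 2.5e-09). Gefitinib arrays lay at 8.80, 8.67 and 8.08. Glycolysis and hypoxia genes were lower in 10 of 21 cases and higher in 3, ribosome biogenesis genes lower in 8 of 19, and FOXO targets higher in 9 of 22. FABP5 (-0.91), TIGAR, a fructose bisphosphatase (-0.93), and the insulin-like ligand IGFL1 (-1.18) were lower with afatinib than with cetuximab. The count of 2060 genes was 379 with batch J arrays alone, 1221 without afatinib array 3 and 1154 without cetuximab array 3.

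**Figure D4:**
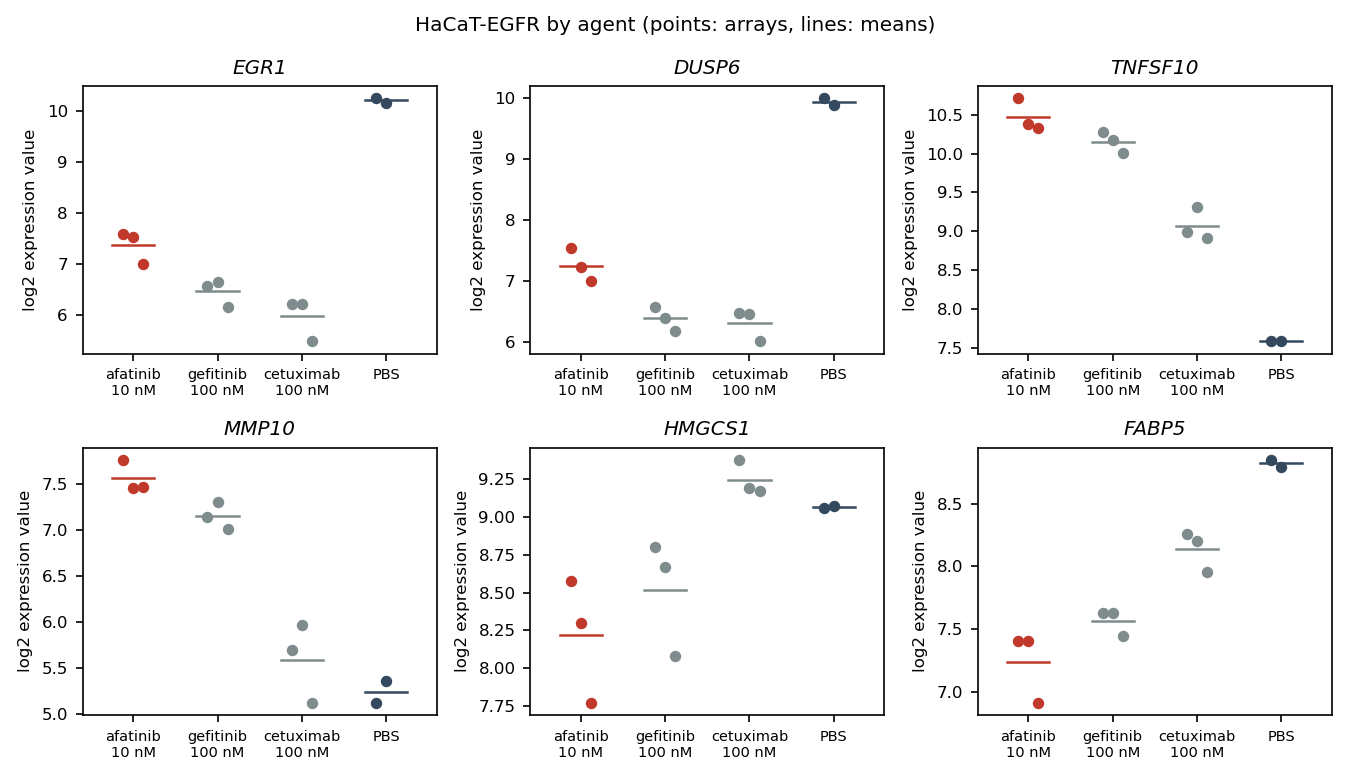
Log2 expression value (vertical axis) of EGR1, DUSP6, TNFSF10, MMP10, HMGCS1 and FABP5 on each HaCaT-EGFR array with 10 nM afatinib, 100 nM gefitinib, 100 nM cetuximab or PBS, with lines at the means. EGR1 on the afatinib arrays (7.0 to 7.59) lies above the gefitinib arrays (6.17 to 6.66) and below the PBS arrays (10.17 and 10.26), and MMP10 on the cetuximab arrays (5.12 to 5.96) reaches the PBS arrays (5.12 and 5.36).

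The response of HaCaT-EGFR was then compared with that of HaCaT-Mock through the difference of the 2 responses. In HaCaT-Mock afatinib called 2919 genes higher (14.8%) and 2722 lower (13.8%). Of these called genes 4 had the opposite sign with batch J arrays alone, which hold 1 afatinib array of this line. The responses differed in 4 genes (0.0202%), all lower in HaCaT-EGFR, while 1188 genes had an unadjusted p under 0.05. With array weights 217 genes differed, 80 higher and 137 lower. The 4 genes of the main model were the CXCR3 ligands CXCL10 (-2.10, SE 0.29, adjusted p = 2e-05), CXCL9 (-2.07, SE 0.229, adjusted p = 5e-08) and CXCL11 (-1.57, SE 0.243, adjusted p = 0.00021), and HMGCS1 (-1.02, SE 0.171, adjusted p = 0.0011). CXCL10 read 4.66, 4.38 and 4.16 with afatinib and 6.37 and 6.2 under PBS in HaCaT-EGFR, against 4.87, 4.6 and 4.61 with afatinib and 4.65, 4.4 and 4.36 under PBS in HaCaT-Mock. The HaCaT-EGFR arrays with PBS thus stood above all others and those with afatinib lay at the level of HaCaT-Mock. CXCL9 had the same pattern, with HaCaT-Mock at 4.61, 4.58 and 4.98 with afatinib and 4.16, 4.67 and 4.61 under PBS. These HaCaT-Mock values of CXCL10 and CXCL9 lay below the level of the median gene (6.102) and were not shown to be above background. Whether the chemokines could fall further in HaCaT-Mock was not tested, so the sizes of their differences are uncertain. The chemokines were also lower on the scramble siRNA arrays, where CXCL10 read 4.64 with afatinib, against 6.69 and 6.4 with PBS, and with siEGFR, at 5.22, 5.48 and 4.89, against 6.42, 6.78 and 6.35 with scramble siRNA. With batch J arrays alone, which hold 1 afatinib array of HaCaT-Mock, the difference was -2.10 for CXCL10 and -0.84 for HMGCS1, and no call is drawn from them. The 95% interval of the difference lay within 1 log2 unit of 0 for 19473 genes, and 95% of genes differed by at most 0.37.

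The response of HaCaT-EGFR differed from that of HaCaT-HRAS, whose constitutively active HRAS signals downstream of the receptor, in 693 genes that were higher (3.50%) and 945 that were lower (4.78%). Afatinib called 662 genes higher (3.35%) and 218 lower (1.10%) in HaCaT-HRAS itself, but only 13 higher and 3 lower with batch J arrays alone. KRT4 rose in HaCaT-EGFR by 3.34 more (SE 0.457, adjusted p = 6.1e-07), MMP10 by 3.04 more (SE 0.409, adjusted p = 4.5e-07) and IVL by 2.32 more (adjusted p = 9.4e-09). ETV5 (-2.89, adjusted p = 2.6e-08), DUSP6 (-2.12, adjusted p = 4.4e-06), EGR1 (-2.03, adjusted p = 2.6e-08), NRG1 (-2.01, adjusted p = 3.5e-11) and FOSL1 (-1.91, adjusted p = 0.0002) were lower in the response of HaCaT-EGFR. In HaCaT-HRAS alone KRT4 changed by 0.31, ETV5 by -0.09 and RPTN by 0.00. Over the genes at least 2-fold changed in HaCaT-EGFR, the median change was 1.28 and -1.22 in HaCaT-EGFR, 1.36 and -1.22 in HaCaT-Mock and 0.50 and -0.34 in HaCaT-HRAS.

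By list, the difference from HaCaT-HRAS covered 12 of 27 MAPK output genes (all lower), 16 of 36 S, G2 and M phase genes and 9 of 19 ribosome biogenesis genes (all lower), 11 lower and 3 higher of 21 glycolysis and hypoxia genes and 8 higher and 1 lower of 22 FOXO targets. Of the interferon response list 1 of 24 genes was higher and 1 lower, and of antigen presentation 1 of 17 was higher. In HaCaT-HRAS 11 of 24 interferon response genes and 11 of 17 antigen presentation genes were higher with afatinib and none lower, and IFIT3 rose by 1.56. With batch J arrays alone these counts were 1 and 0, with median changes of 0.41 and 0.33. CCL2, a chemokine, rose by 2.67 there. The 6 AP-2alpha targets named as rising and the 4 named as falling had no member that passed in HaCaT-HRAS, and EGFR changed by 0.06. With batch J arrays alone 454 genes differed, of which 447 also passed with all arrays, and the count was 870 without HaCaT-EGFR PBS array 1 and 1010 without PBS array 2.

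**Figure D5:**
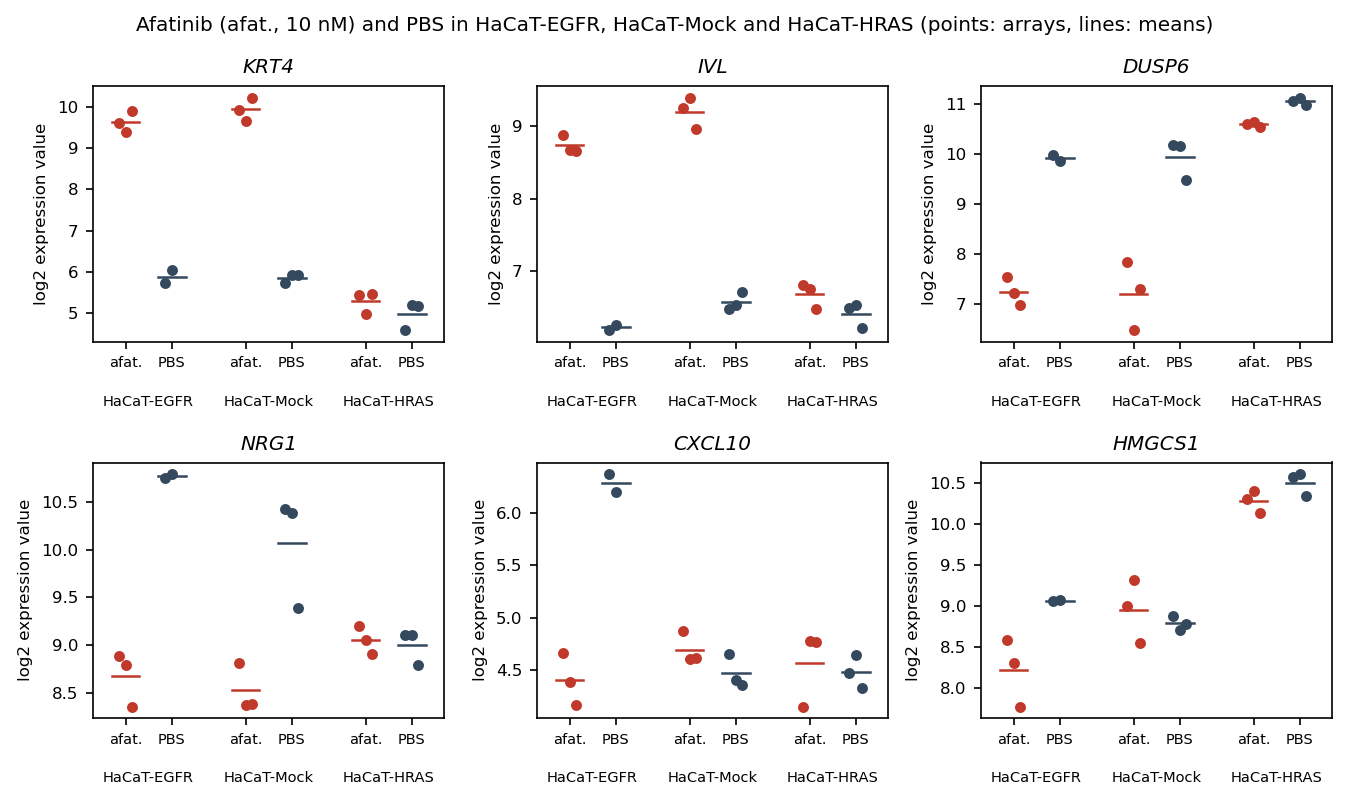
Log2 expression value (vertical axis) of KRT4, IVL, DUSP6, NRG1, CXCL10 and HMGCS1 on each afatinib array (red) and PBS array (dark) of HaCaT-EGFR, HaCaT-Mock and HaCaT-HRAS, with lines at the means. KRT4 separates by 3.65 in HaCaT-EGFR and 0.31 in HaCaT-HRAS, and CXCL10 separates in HaCaT-EGFR (4.16 to 4.66 with afatinib, against 6.2 and 6.37 under PBS) and overlaps in HaCaT-Mock (4.6 to 4.87, against 4.36 to 4.65).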

How the data were processed

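RNA was measured on Affymetrix U133 Plus 2.0 arrays. Each probe set of each array had a log2 value deposited by the authors, and these ran between 2.65 and 14.5. The affy package appears in the submitters' processing notes, with no version. In its methods the study normalized by frozen RMA, corrected batch through surrogate variables and removed outlying arrays. Which of these steps the log2 values hold was not given in the sources used here. The labels name a pair of labelling kits without saying which array had which, so kit and batch cannot be told apart. Arrays have no read depth, and precision was limited by their number.

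Groups and batches came from the labels. Gene names came from the platform annotation, possibly old, and were updated through RefSeq. Of 54675 probe sets, 41091 had 1 symbol, 1801 had several and were left out, 11777 were not listed and stay unnamed, and 6 were control probe sets with 1 symbol, left out. Each of 19775 genes was represented by its probe set of highest mean on HaCaT construct arrays (10523 genes had more than 1), with no filter on low values. List members without a named probe set are not reported here. A linear model of 40 groups plus array batch (J, E or M) was fitted to 89 arrays with limma 3.58.1 in R 4.3.3 (data.table version 1.17.8), leaving 47 residual degrees of freedom, with empirical Bayes moderation (prior degrees of freedom 5.593) and Benjamini-Hochberg adjustment over all genes of a comparison. Calls were made at an adjusted p under 0.05, tests were two-sided, and the procedure was tested on simulated data. Intervals of differences are 95% intervals from the moderated statistics. Tables and plots were made with Python 3.11.15, pandas 2.3.3, numpy 2.4.6 and matplotlib 3.10.9. Promoter sequences came from RefSeq (GRCh38.p14), in which 15384 of the genes tested had an entry.

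Genes were named by a rule. It took the 12 largest rises and 12 largest falls at or above the median level (6.102), every ERBB receptor, ERBB ligand, AP-2 factor and AP-2alpha target, up to 4 called members with the largest rise and fall of each other list, and up to 6 rises and 6 falls of each other comparison. Members outside it that are quoted to show which ones moved or did not, and CXCL11, AQP3, CLDN8 and LYNX1, were chosen after their values were seen. The comparisons, members and lists were chosen with earlier results of these data known. Alternatives changed the arrays in the model, the batch term, the probe set rule, a level filter, array weights, the variance prior, quantile normalization and a replicate block, and left out each array in turn.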

Additional observations from a re-analysis of the deposited data

Results flagged for a closer look

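The response of HaCaT-EGFR to afatinib differed from that of HaCaT-Mock, by the test of the difference itself, in 4 genes, CXCL10 (-2.10), CXCL9 (-2.07), CXCL11 (-1.57) and HMGCS1 (-1.02). The chemokine values with afatinib were not shown to be above background, so the sizes of the chemokine differences are uncertain. The response of HaCaT-EGFR differed from that of HaCaT-HRAS in 1638 genes. Among those at or above the median level, the largest positive differences were KRT4 (3.34), MMP10 (3.04), MPPED2 (2.33), IVL (2.32), CYP4F3 (2.22) and AHNAK2, a large scaffold protein (2.09). The largest negative differences were ETV5 (-2.89), DUSP6 (-2.12), EGR1 (-2.03), NRG1 (-2.01), FOSL1 (-1.91) and CALB2 (-1.81). All are log2 differences of responses, HaCaT-EGFR minus the other line, and their cause was not tested.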

How the results depend on the processing

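For afatinib against PBS the 5281 genes were 4865 when only the compared groups entered with a batch term, 6716 with HaCaT-EGFR arrays alone, 5196 with the probe set rule of the study, 4921 at or above the median level, 7636 with array weights, 5324 with an intensity trend and robust prior, 5343 with quantile normalization, 6356 without HaCaT-HRAS gefitinib arrays 1 and 2 and HaCaT-PIK3CA afatinib array 1, and 3923 to 4776 with 1 array left out. They were 2796 with the 5 arrays alone and no batch term and 3256 with all arrays and no batch term. Array weights gave 73 genes against gefitinib, 4452 against cetuximab, 217 (80 higher) for the difference from HaCaT-Mock, 4109 for that from HaCaT-HRAS and 3984 for siEGFR. Batch J arrays alone gave 379 genes against cetuximab, 454 for HaCaT-HRAS and 725 for siEGFR. No such count is given for HaCaT-Mock, which had 1 afatinib array in batch J. The cause was not tested. The 3 arrays left out together, of groups not compared here, were in doubt but stayed in the main model and its spread. The counts against gefitinib and for the difference from HaCaT-Mock were not repeated without them. Array weights of the construct arrays ran between 0.02 and 2.6.

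Leaving out 1 array gave 0 to 1 genes against gefitinib (0 without afatinib array 1 or 2 or any gefitinib array), 1154 to 1625 against cetuximab (1221 without afatinib array 3), 4 to 7 for HaCaT-Mock (7 without HaCaT-EGFR afatinib array 1 or HaCaT-Mock afatinib array 3), 870 to 1480 for HaCaT-HRAS, 1285 to 1449 for siEGFR and 1916 to 2383 for scramble siRNA with afatinib. The scramble siRNA comparison within batch E, 1 array against 1, gives values and no count.

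With the replicate number as a replicate block the counts were 5282 against PBS, 1 against gefitinib, 2065 against cetuximab, 4 and 1641 for the line differences and 1872 for siEGFR. The differences between replicates 1 and 2 correlated at 0.002 between afatinib and PBS. Over all pairs of HaCaT-EGFR groups with 2 arrays in batch J the correlations ran between -0.048 and 0.092. These values show no clear pairing by number but cannot exclude a shared effect smaller than the spread between arrays.

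Of 2608 values of 155 named genes under 17 alternatives, 2442 kept their direction and side of the threshold, 130 lost the call, 17 gained it and 19 changed sign. BAD, at -0.042 with the probe set rule of the study, was the 1 called gene that changed sign. Of genes without a call, TFAP2C was 0.036 with batch J arrays alone and with the compared groups, 0.008 with HaCaT-EGFR arrays alone and 0.044 with quantile normalization, and -0.08 to 0.036 with 1 array left out. TFAP2D was 0.015 and TFAP2E 0.001 with batch J arrays alone and with the compared groups, and leaving out 1 array gave -0.218 to 0.045 and -0.19 to 0.143. Likewise ERBB4 ran between -0.248 and 0.056, and NRG2 between -0.067 and 0.33.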
